A study of Mus musculus with 3 samples.

Results

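The 9 heat shock chaperone genes described here were chosen by symbol, and all 9 were found among the 27998 genes of the deposited tables. Hspa1a and Hspa1b encode the stress-inducible Hsp70, Dnajb1 the J-domain protein Hsp40, Hsph1 the exchange factor Hsp110, and Hspa8 the constitutive Hsp70 (Hsc70). Hsp90aa1 and Hsp90ab1 encode the inducible and the constitutive cytosolic Hsp90. Hspd1 and Hspe1 encode Hsp60 and Hsp10, the folding chamber of mitochondria and its lid. The working name of the set, cytosolic heat shock chaperones, therefore holds for 7 of the 9 genes.

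Molecular chaperones of the heat shock families hold unfolded proteins and help them fold. Hsp70 proteins bind short hydrophobic stretches, J-domain proteins hand clients to Hsp70, nucleotide exchange factors release them, and Hsp90 finishes the folding of kinases and hormone receptors. When unfolded protein accumulates, heat shock factor 1 (HSF1) binds repeated GAA and TTC blocks in the promoters of the inducible genes. In brain myeloid cells, as in other tissue, this response is also set off by warming, dissociation and oxidative stress.

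CD11b is an integrin chain of myeloid cells. CD11b-positive cells were taken from mouse fetal brain at E18.5 by Percoll gradient and magnetic beads and sequenced as droplet libraries of transcript 3' ends, with 1 library in each of 3 groups. The groups were Gzmb-cko polyIC (genotype Ncr1-cre;gzmbf/f, treated with poly(I:C), a synthetic double-stranded RNA), Ncr1-cre polyIC (genotype Ncr1-cre, same treatment) and Ncr1-cre saline (genotype Ncr1-cre, saline). All 3 groups carry Ncr1-cre. The Ncr1 gene is active in natural killer cells and some other innate lymphoid cells, not in myeloid cells, so the cells described here are not those in which Cre is made. A Gzmb-cko saline library was not analysed here. The labels speak of groups of pregnant mice. They do not say which dose was given on which day, how many fetuses make up a library, or if dam or fetus bears the named genotype.

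The Gzmb-cko polyIC, Ncr1-cre polyIC and Ncr1-cre saline libraries held 105574073, 85442198 and 89295907 UMIs (unique molecule counts) in 15306, 14887 and 13820 barcodes. The lowest barcode had 500, 500 and 3133 UMIs, so the libraries began from different lower limits. Between 63 and 71 barcode sequences were shared by each pair of libraries. Of the barcodes, 13447, 10759 and 12148 had at least 500 genes and at most 10% mitochondrial UMIs and were kept. Gzmb had 2, 127 and 61 UMIs in 1, 6 and 4 of the kept cells, and Ncr1 had 0, 6 and 8 UMIs. Which exons the floxed allele loses is not stated in the labels, so these 3' tags may lie outside them and need not check the genotype.

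Cells were sorted into 5 classes by marker gates. Microglia (P2ry12 present, Mrc1 at 0) numbered 5121, 4272 and 5064 cells. Border macrophages of the meninges and choroid plexus (Mrc1 and Pf4 present) numbered 1830, 663 and 1055. Monocytes (Ccr2 and Ly6c2 present) numbered 343, 403 and 480. Choroid plexus cells (Ttr at 5% of UMIs or more) numbered 1014, 822 and 356, and neurons (Stmn2 and Dcx present) numbered 115, 314 and 113. All listed markers of each class (8, 7, 6, 7 and 6 genes) were highest in their own class in every library. The lists include the gate genes P2ry12, Mrc1, Pf4, Ccr2, Ly6c2, Ttr, Stmn2 and Dcx. For these the gates favoured that outcome, so only the other listed genes bear on the classes. The choroid plexus class was mixed: 465, 383 and 199 of its cells carried a UMI of Ccdc153 or Rsph1, genes of ciliated cells.

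RNA of other cells moved with the libraries. Hemoglobin genes took 2.56, 5.75 and 9.93% of microglial UMIs in the Gzmb-cko polyIC, Ncr1-cre polyIC and Ncr1-cre saline libraries. All 6 neutrophil markers together reached 1460, 2618 and 4505 CPM (UMIs of a gene scaled to the UMI total of its class) in microglia. Cycling cells, those with a UMI of Mki67 or Top2a, made up 28.1, 23.3 and 34.97% of microglia. Sex-linked RNA differed too. Microglia with Xist and no Y gene UMI made up 32.8, 48.1 and 41.4%, and those with Y gene and no Xist UMI 37.5, 19.9 and 26.4%. The part of these differences in the results below was not tested, beyond the values given with restricted cells.

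Promoters are shown for the blocks that HSF1 is known to bind. RefSeq promoters of 300 bases (250 before and 50 after the annotated start, GRCm38.p6) were matched for 6 of the 9 genes, not for Hspa8, Hsp90aa1 and Hsp90ab1, so inducible and constitutive Hsp70 or Hsp90 genes were not compared. They were searched for GAANNTTC and TTCNNGAA, each of which reads the same on both strands, and overlapping matches were joined into runs. At least 1 of these motifs stood in 15.06% of all 32851 promoters, and a joined run of at least 18 bases in 9 of them (0.0274%). Hspe1 and Hspd1 lie head to head on chromosome 1 and share such a run of 18 bases. It starts 89 bases before the Hspe1 start, and read on the other strand it is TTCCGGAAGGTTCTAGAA, 144 bases before the Hspd1 start. Hsph1 holds a run of 13 bases just after its start, a length reached in 0.618% of promoters, and a single motif 33 bases before it. Hspa1a and Hspa1b each hold 1 single motif 104 bases before the start, and their 300 bases differ at 4 positions. A second Hspd1 window and both Dnajb1 windows held no match, which says only that these letters are not in those windows. The runs are in capitals in the sequences shown for the promoter pair, the exchange factor and the inducible Hsp70:
Hspe1 promoter, chr1:55087898-55088197, plus strand: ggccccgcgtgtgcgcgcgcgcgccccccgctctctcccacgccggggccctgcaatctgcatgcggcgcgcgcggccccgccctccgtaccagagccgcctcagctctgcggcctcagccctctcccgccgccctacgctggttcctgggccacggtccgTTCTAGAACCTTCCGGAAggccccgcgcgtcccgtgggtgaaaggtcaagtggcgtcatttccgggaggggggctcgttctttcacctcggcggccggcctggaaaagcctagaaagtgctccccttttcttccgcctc
Hsph1 promoter, chr5:149636287-149636586, minus strand: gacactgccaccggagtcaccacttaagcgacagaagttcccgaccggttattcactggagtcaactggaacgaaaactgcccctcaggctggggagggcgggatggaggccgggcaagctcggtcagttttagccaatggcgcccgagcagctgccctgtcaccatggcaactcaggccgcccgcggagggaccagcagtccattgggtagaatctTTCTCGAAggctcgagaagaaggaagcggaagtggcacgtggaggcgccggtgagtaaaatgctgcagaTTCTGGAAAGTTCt
Hspa1a promoter, chr17:34972107-34972406, minus strand: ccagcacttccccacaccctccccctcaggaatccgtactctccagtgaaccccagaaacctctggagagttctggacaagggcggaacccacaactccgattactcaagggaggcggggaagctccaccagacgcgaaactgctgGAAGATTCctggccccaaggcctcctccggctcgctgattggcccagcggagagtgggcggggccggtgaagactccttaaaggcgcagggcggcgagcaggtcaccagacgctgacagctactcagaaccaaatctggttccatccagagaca

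Levels are given as CPM of the class, for the Gzmb-cko polyIC, Ncr1-cre polyIC and Ncr1-cre saline libraries in that order. They come from counts of transcript 3' ends, so a gene is compared with itself across classes and libraries and not with another gene. The plot of levels by class shows all 135 values.

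**Figure D1:**
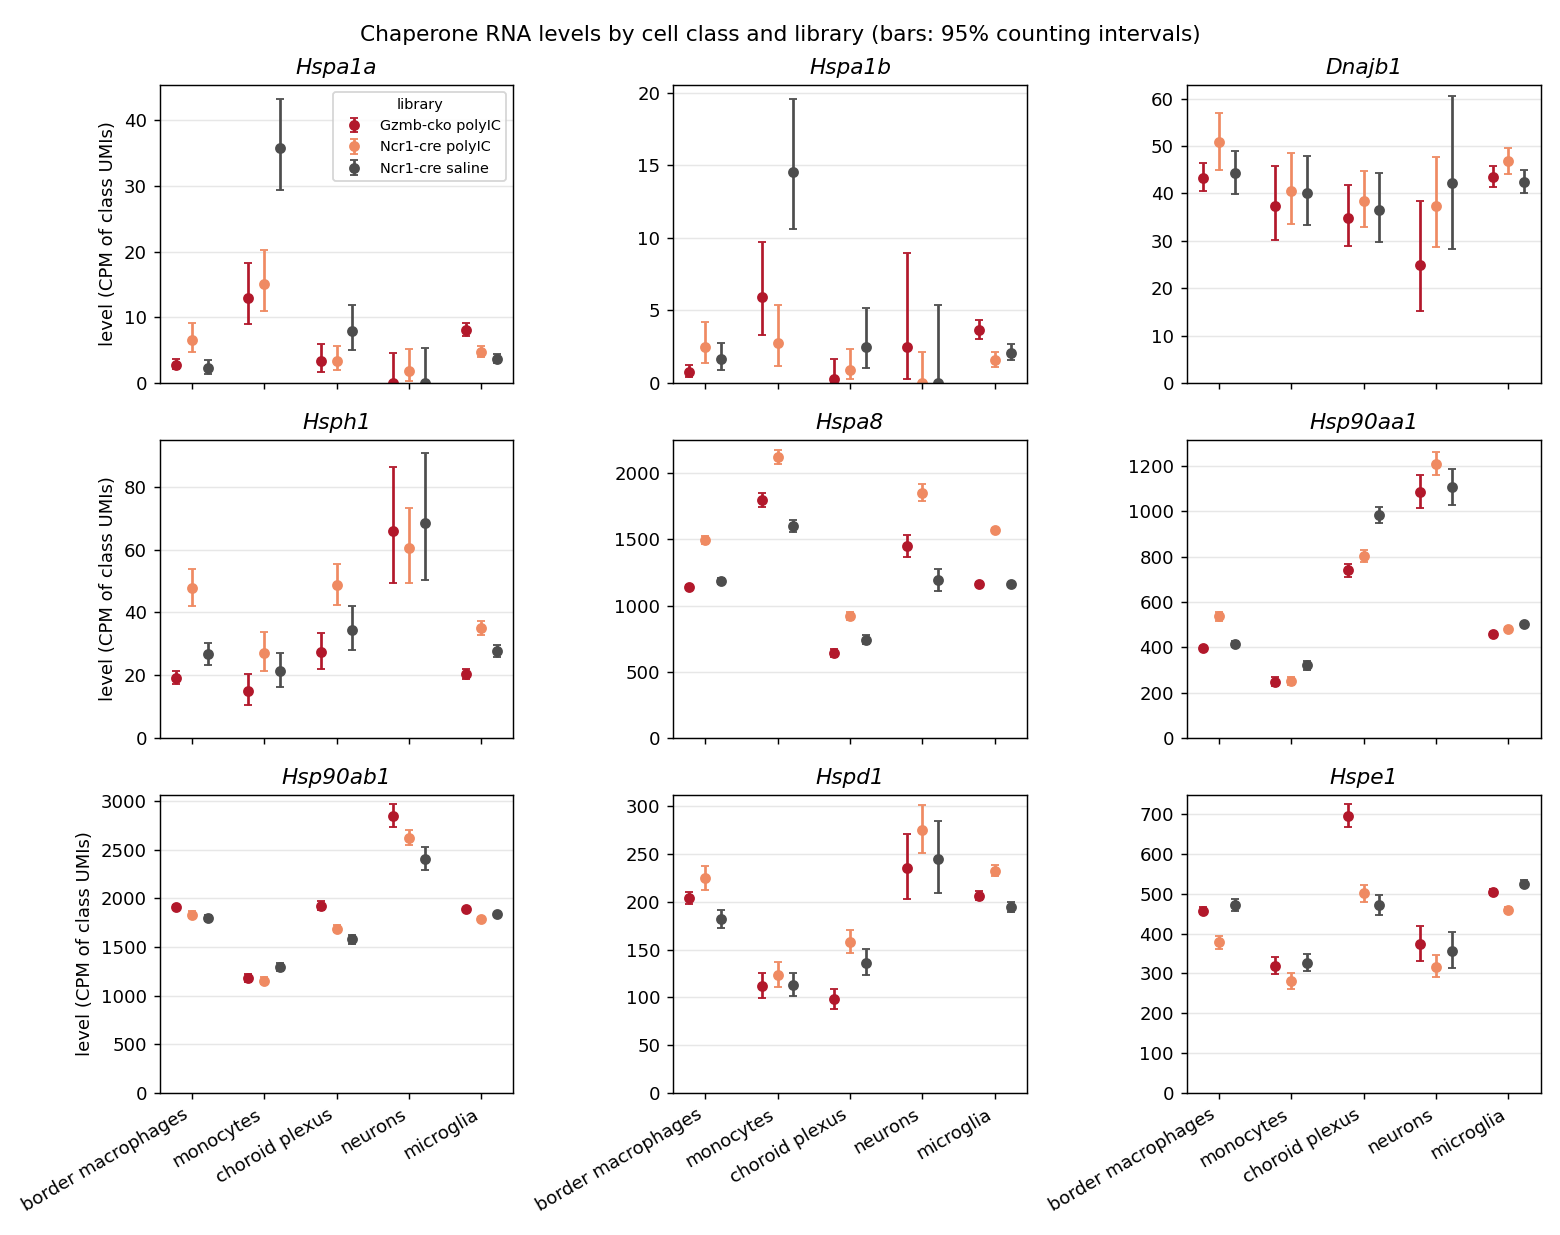
Level of each gene (y axis, CPM of the class, linear from 0) in 5 cell classes (x axis); each point is 1 library, coloured by group, and bars are 95% exact Poisson intervals, which cover counting error only. Hspa1a is highest in monocytes, Hsp90aa1 and Hsph1 in neurons, and Hspa8 is higher in Ncr1-cre polyIC than in both other libraries in every class.

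The inducible Hsp70 genes were at very low levels. Hspa1a (chromosome 17, 34969190 to 34972156, minus strand, mm10) had 12.99, 15.1 and 35.8 CPM in monocytes. It had 2.81, 6.61 and 2.22 CPM in border macrophages, 3.31, 3.39 and 7.88 CPM in choroid plexus cells and 8.08, 4.73 and 3.71 CPM in microglia. Monocytes were the highest class in each library, and the order of the libraries changed from class to class. Neurons held 0, 3 and 0 Hspa1a UMIs, and a count of 0 allows up to 3.73 CPM in Gzmb-cko polyIC and 4.37 CPM in Ncr1-cre saline.

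Hspa1b (chromosome 17, 34956436 to 34959238, minus strand) was lower still. It had 0.728, 2.502 and 1.63 CPM in border macrophages, 5.91, 2.74 and 14.6 CPM in monocytes and 3.64, 1.58 and 2.08 CPM in microglia. Choroid plexus cells and neurons held at most 7 UMIs a library. The Hspa1a and Hspa1b transcripts are 85.5% identical in alignment but 51.0% over their last 500 bases, the end that was sequenced. Reads from the shared stretch could not be given to 1 gene, so the split between both is uncertain.

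Dnajb1, whose protein delivers clients to Hsp70, was the most even gene of the set. On chromosome 8 (83608193 to 83612653, plus strand), it had 43.3, 50.7 and 44.2 CPM in border macrophages and 37.4, 40.4 and 40.1 CPM in monocytes. Choroid plexus cells had 34.9, 38.4 and 36.6 CPM, neurons 24.9, 37.3 and 42.2 CPM and microglia 43.6, 46.8 and 42.4 CPM. All values but that of neurons in Gzmb-cko polyIC lay between 34.9 and 50.7 CPM. A Dnajb1 UMI was found in 23.8, 22.1 and 20.9% of microglia.

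Hsph1, the Hsp110 exchange factor (chromosome 5, 149614287 to 149636376, minus strand), was highest in neurons at 66.0, 60.6 and 68.4 CPM. It had 19.1, 47.7 and 26.6 CPM in border macrophages, 14.96, 27.1 and 21.2 CPM in monocytes, 27.3, 48.6 and 34.4 CPM in choroid plexus cells and 20.4, 34.96 and 27.7 CPM in microglia. In these 4 classes Ncr1-cre polyIC was the highest library and Gzmb-cko polyIC the lowest. Neurons did not show that order.

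Hspa8, the constitutive Hsp70 (chromosome 9, 40800984 to 40810087, plus strand, with 3 small nucleolar RNA genes inside it), was found in 97.7, 97.5 and 97.7% of microglia. Its level was 1137, 1495 and 1184 CPM in border macrophages and 1797, 2119 and 1602 CPM in monocytes. Choroid plexus cells had 640.4, 919.9 and 743.3 CPM, neurons 1449, 1852 and 1193 CPM and microglia 1165, 1572 and 1160 CPM. Ncr1-cre polyIC was the highest library in all 5 classes.

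Of the Hsp90 genes, Hsp90aa1 (chromosome 12, 110690605 to 110702728, minus strand) varied more between classes than Hsp90ab1. Hsp90aa1 had 396.6, 535.7 and 414.5 CPM in border macrophages and 248.0, 249.1 and 320.2 CPM in monocytes. It had 738.7, 802.1 and 983.1 CPM in choroid plexus cells, 1084, 1209 and 1105 CPM in neurons and 459.9, 478.9 and 500.8 CPM in microglia. Monocytes were the lowest class and neurons the highest in each library. Hsp90ab1 (chromosome 17, 45567775 to 45573271, minus strand) had 1914, 1834 and 1796 CPM in border macrophages, 1180, 1155 and 1299 CPM in monocytes, 1923, 1688 and 1580 CPM in choroid plexus cells, 2852, 2624 and 2410 CPM in neurons and 1891, 1792 and 1836 CPM in microglia. Its microglial values differed little, with 1840 ± 49.4 CPM over the libraries (SD, n = 3).

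The mitochondrial pair shares a promoter, but the order of the libraries differed between both genes. Both were lower in monocytes than in microglia, as given below. Hspd1 (chromosome 1, 55077835 to 55088243, minus strand) had 112.2, 123.7 and 112.7 CPM in monocytes, 98.0, 158.5 and 136.6 CPM in choroid plexus cells and 206.6, 232.9 and 194.3 CPM in microglia. Hspe1 (chromosome 1, 55088132 to 55091307, plus strand) had 319.3, 281.0 and 327.1 CPM in monocytes, 696.0, 500.7 and 471.3 CPM in choroid plexus cells and 504.1, 459.3 and 525.6 CPM in microglia. Ncr1-cre polyIC was the highest library for Hspd1 in these 3 classes, and the lowest for Hspe1 in microglia and monocytes. Over the 15 sums of class and library, the log2 levels of both genes had a Pearson r of -0.10, a description only, since sums of 1 library share depth and free RNA.

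Cell classes were then compared with edgeR's quasi-likelihood test on the 15 sums, with the library as a covariate and Benjamini-Hochberg adjustment over 12752 genes. The 3 libraries come from different groups, so the spread includes differences of class by group. The p-values measure how far the class differences vary between these 3 libraries. With 1 library a group they hold no spread within a group. Border macrophages did not differ from microglia in any of the 9 genes at an adjusted p under 0.05, where 5.75% of all genes were called (4.12% higher and 1.63% lower). The largest difference there among genes over 20 CPM was Hspe1, at -0.22 on the log2 scale (SE 0.15, adjusted p 0.563). At such errors a moderate difference could be missed. The border gate does not exclude P2ry12. The 8 microglia markers summed to 7387, 7588 and 6889 CPM in border macrophages and 12465, 12971 and 10170 CPM in microglia. How much of the RNA of that class comes from microglia was not tested.

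Monocytes had more inducible and constitutive Hsp70 RNA and less Hsp90 and mitochondrial chaperone RNA than microglia. Of the 9 genes 7 passed the test, 3 higher and 4 lower, where 22.1% and 21.1% of all genes were called in these directions. Hspa1a was higher by a log2 fold of 2.16 (SE 0.45, adjusted p 0.00139) and Hspa1b by 1.78 (SE 0.57, adjusted p 0.0214). Hspa8 averaged 1839 ± 261 CPM in monocytes and 1299 ± 236 CPM in microglia (SD, n = 3 each), a log2 fold of 0.76 (SE 0.13, adjusted p 0.000240 in edgeR). Hspd1 was lower by edgeR at -0.61 (SE 0.14, adjusted p 0.00255), Hsp90aa1 at -0.57 (SE 0.15, adjusted p 0.00559), Hspe1 at -0.43 (SE 0.15, adjusted p 0.0302) and Hsp90ab1 at -0.35 (SE 0.13, adjusted p 0.0383).

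Not all of these monocyte calls held. Hspe1 and Hsp90ab1 lost theirs whenever any 1 library was left out, with adjusted p up to 0.130 and 0.191 in edgeR. The Hspa1b call was lost without Ncr1-cre saline and without likely doublets (adjusted p up to 0.376), and that of Hsp90aa1 without Gzmb-cko polyIC (adjusted p 0.0580). Hspa1a, Hspa8 and Hspd1 passed under all 12 alternatives. The median log2 ratio over all genes was -0.25 for CPM and -0.09 for the edgeR folds in monocytes, and 0.21 and -0.00 in neurons, and none of the calls in these classes changes direction between both scales. The Hspa1a value rests on few cells: the 3, 4 and 5 monocytes with the most UMIs held 81.8, 77.3 and 78.7% of its monocyte UMIs.

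Choroid plexus cells had more Hsp90aa1 and Hsph1 RNA than microglia. Hsp90aa1 averaged 841 ± 127 CPM in choroid plexus cells and 480 ± 20.5 CPM in microglia (SD, n = 3 each), a log2 fold of 1.27 (SE 0.15, adjusted p 1.92e-06 in edgeR). Hsph1 averaged 36.8 ± 10.8 CPM in choroid plexus cells and 27.7 ± 7.30 CPM in microglia (SD, n = 3 each), a log2 fold of 0.88 (SE 0.17, adjusted p 0.000287 in edgeR). Both calls held without cells carrying ciliated-cell UMIs. Hspe1 was higher at 0.63 (SE 0.15, adjusted p 0.00159 in edgeR), a call lost without Gzmb-cko polyIC (adjusted p 0.109). On the CPM scale the ratio of its means was only 1.12. In Ncr1-cre saline Hspe1 had 471.3 CPM in choroid plexus cells and 525.6 CPM in microglia, the other direction. In all, 4 genes were higher and none lower, where 38.1% of all genes were higher and 35.3% lower.

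The scale matters in this class, because Ttr alone took 17.9 to 27.9% of its UMIs. The median log2 ratio of CPM over all genes was -0.38, against -0.00 for the edgeR folds. The fourth gene, Hsp90ab1, was higher by a log2 fold of 0.38 in edgeR (SE 0.13, adjusted p 0.0147) but had a ratio of 0.941 on the CPM scale, and its call was lost when any 1 library was left out. Hspa8 had 768 ± 141 CPM in choroid plexus cells and 1299 ± 236 CPM in microglia (SD, n = 3 each), but in edgeR its log2 fold of -0.29 missed the threshold (adjusted p 0.0534).

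Neurons also had more Hsp90aa1 and Hsph1 RNA than microglia, and less Hspe1 and Dnajb1. Hsp90aa1 averaged 1133 ± 67.2 CPM in neurons and 480 ± 20.5 CPM in microglia (SD, n = 3 each), a log2 fold of 0.99 (SE 0.15, adjusted p 3.92e-05 in edgeR). Hsph1 averaged 65.0 ± 4.02 CPM in neurons and 27.7 ± 7.30 CPM in microglia (SD, n = 3 each), a log2 fold of 0.95 (SE 0.19, adjusted p 0.000603 in edgeR). The lowest Hsph1 value among neuron sums, 60.6 CPM, lay above the highest among microglial sums, 34.96 CPM. How many of all genes separate so was not counted. Hspe1 was lower at -0.76 (SE 0.15, adjusted p 0.000555) and Dnajb1 at -0.60 (SE 0.14, adjusted p 0.00199), where 30.8% of all genes were higher and 28.8% lower by edgeR. These 4 calls held under all 12 alternatives. The neuron class was mixed too: 25.2, 29.3 and 50.4% of its cells had a UMI of Mki67 or Top2a. The 8 microglia markers summed to 2255, 808 and 3042 CPM in it, and the 6 neutrophil markers to 2851, 676 and 10275 CPM. The part of cycling cells and of RNA of other cells in these differences was not tested.

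**Figure D2:**
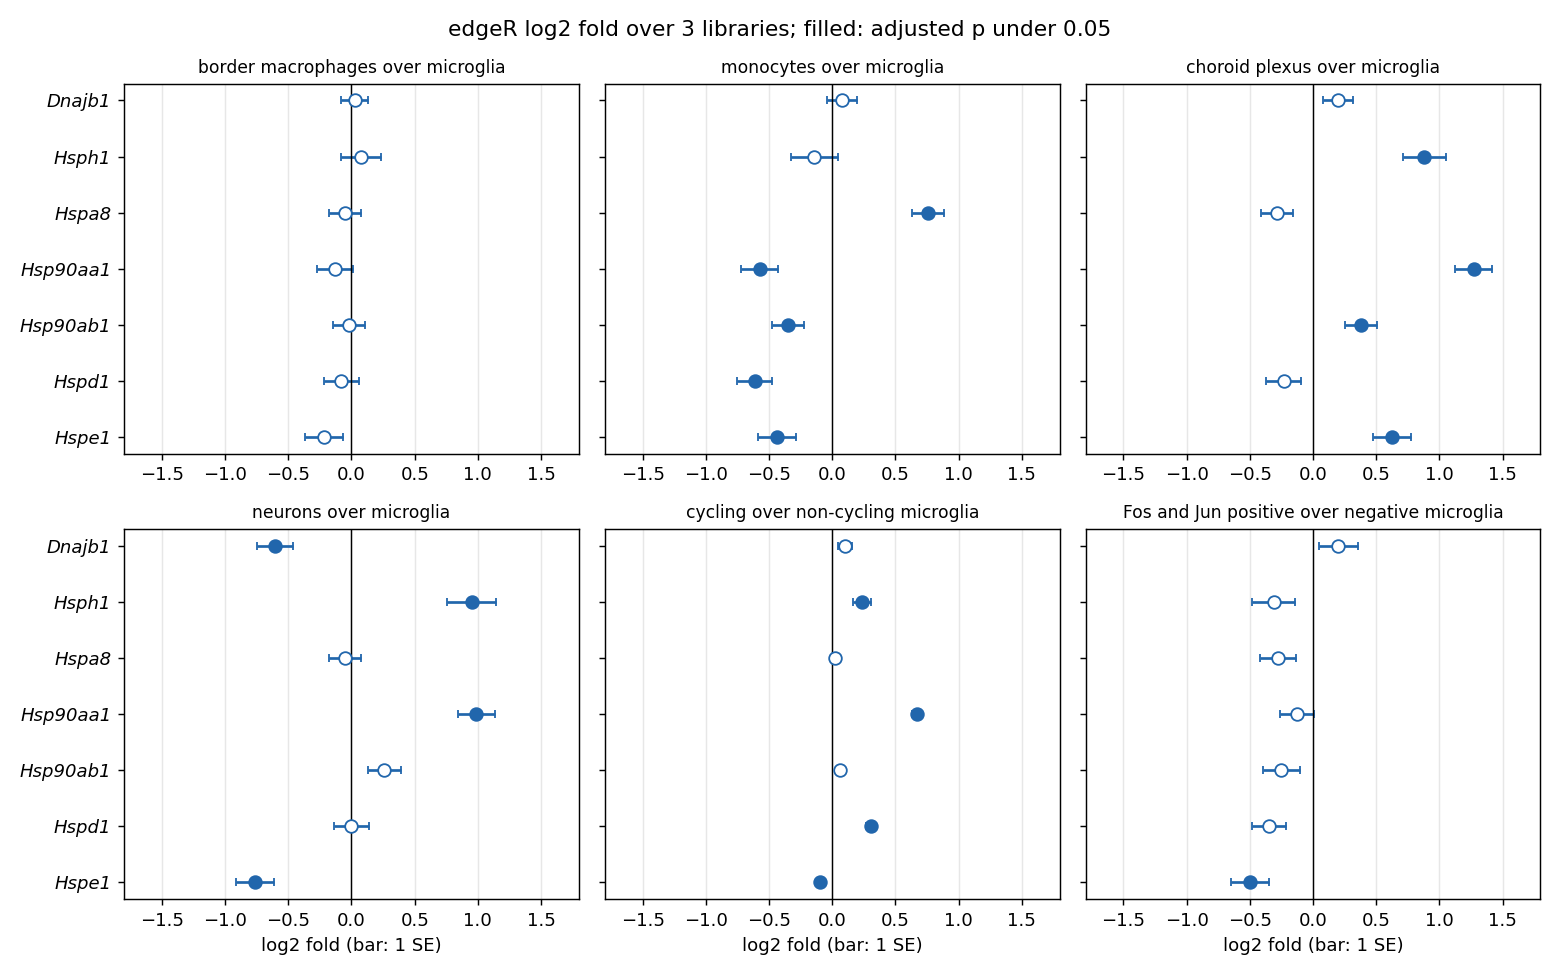
Log2 fold by edgeR (x axis; bars 1 SE) of the 7 genes other than Hspa1a and Hspa1b, for 4 classes over microglia and for 2 states of microglia, each over 3 libraries; filled points have an adjusted p under 0.05. Hsp90aa1 and Hsph1 lie right of 0 in choroid plexus cells, neurons and cycling microglia, and no point is filled for border macrophages.

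Partner genes were read from lists, chosen as the members were with earlier results known. In choroid plexus cells all 7 measured genes of the cytosolic chaperonin TRiC were higher than in microglia by edgeR, with 8 of 12 Hsp90 cochaperones (2 lower) and 9 of 13 Hsp70 partners. Examples are Stip1, which bridges Hsp70 and Hsp90, at a log2 fold of 1.35 (SE 0.13), and Dnaja1, a J-domain partner of Hspa8, at 1.27 (SE 0.17). The median log2 fold was 0.66 for TRiC, 0.96 for the Hsp90 cochaperones and 0.65 for the Hsp70 partners, beside -0.00 for all genes. In neurons Dnaja1 was higher at 1.24 (SE 0.17) and Stip1 at 0.55 (SE 0.14), and 4 of 7 TRiC genes and 5 of 12 cochaperones were higher (1 cochaperone lower).

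Other lists went the other way. Chaperones of the endoplasmic reticulum were lower than in microglia for 8 of 12 genes in choroid plexus cells, 11 of 12 in neurons and 8 of 12 in monocytes, and none was higher. Hspa5, the Hsp70 of that compartment, had log2 folds of -0.51, -1.48 and -0.53 in these classes by edgeR. Immediate early genes were lower for 13 of 14 in choroid plexus cells and in neurons, with Fos at -3.06 and -2.89. In monocytes 4 of 12 Hsp90 cochaperones were higher and 1 lower, and of 13 Hsp70 partners none was higher and 3 were lower, counts to be read beside the 22.1% and 21.1% of all genes. Of 10 HSF1-linked inducible and small chaperones 6 were higher in choroid plexus cells. In border macrophages 1 of the 80 matched partner genes was called.

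Microglia were compared next between libraries. Each group is 1 library, so treatment and genotype could not be tested. Ratios are given with exact 95% intervals of counting error and called past 1.5-fold where a gene reached 20 CPM in either library and 100 UMIs over both. A pair of comparisons shares the Ncr1-cre polyIC library, so a high or low value there moves both.

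For Ncr1-cre polyIC over Ncr1-cre saline, which bears on the treatment, no member passed 1.5-fold in microglia, where 3.74% of 5955 genes were higher and 1.61% lower by that fold. Hspa8 had the largest ratio, 1.36 (95% interval 1.34 to 1.38), from 1572 CPM in Ncr1-cre polyIC and 1160 CPM in Ncr1-cre saline. Hsph1 had a ratio of 1.26 (1.15 to 1.39), Hspd1 1.20 (1.15 to 1.24) and Dnajb1 1.10 (1.02 to 1.20). Hsp90ab1 had 0.976, Hsp90aa1 0.956 (0.933 to 0.980) and Hspe1 0.874 (0.853 to 0.895).

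These ratios must be read against a general shift. Of all 5955 genes 75.7% had a ratio over 1, with a median log2 ratio of 0.17, while the 7 members tested had 4 over 1 and a median of 0.14. With TMM factors, which centre the bulk of genes, that median was -0.00, and Hspa8 stood at 1.21, Hsph1 at 1.12, Hspd1 at 1.07, Dnajb1 at 0.98, Hsp90ab1 at 0.87, Hsp90aa1 at 0.85 and Hspe1 at 0.78. Dnajb1 thus changed direction with the scaling. Short transcripts had lower ratios than long ones. Genes with a longest transcript under 1000 bases, such as Hspe1 with 964, had a median log2 ratio of -0.11, against 0.19 for those of 2000 bases and over.

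In the other classes Hspa8 was also higher in Ncr1-cre polyIC than in Ncr1-cre saline. Its ratio was 1.26 in border macrophages, 1.32 in monocytes, 1.24 in choroid plexus cells and 1.55 (1.44 to 1.68) in neurons. In these classes 73.5, 73.4, 66.7 and 66.1% of all genes had a ratio over 1. The neuron ratio was past 1.5-fold, as were the ratios of 19.2% of all genes there. Hsph1 passed in border macrophages with 1.79 (1.498 to 2.15), where 8.07% of genes were higher by that fold. That ratio was 1.42 without cells carrying ciliated-cell UMIs and 1.36 as a mean of per-cell CPM. Hsp90aa1 in border macrophages likewise had 0.98 without those cells and 1.29 with them.

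Hspa1a was lower past 1.5-fold in monocytes, at 15.1 CPM in Ncr1-cre polyIC and 35.8 CPM in Ncr1-cre saline (ratio 0.421, 0.290 to 0.603), where 3.99% of genes were lower by that fold. The 5 monocytes with the most UMIs held 78.7% of the Hspa1a UMIs in the saline sum, as given above. Neutrophil markers summed to 5599, 7901 and 15704 CPM in the monocytes of Gzmb-cko polyIC, Ncr1-cre polyIC and Ncr1-cre saline, and 11.7, 16.1 and 28.3% of these cells had over 2% of other-class UMIs (Ttr, S100a8, S100a9 and hemoglobin genes). With cells at or under 2% the Hspa1a ratio was 0.397. The Hspa1a ratio in microglia was 1.27 (0.973 to 1.67), an interval that includes 1.

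Partner lists in microglia were read beside the shift of all genes. All 11 Hsp90 cochaperones measured, all 7 TRiC genes and all 6 mitochondrial chaperones and proteases had ratios over 1, with median log2 ratios of 0.17, 0.23 and 0.17 beside 0.17 for all genes, and none passed 1.5-fold. The 3 HSF1-linked genes measured had a median of 0.05, and Hsbp1, a binding partner of HSF1, a ratio of 0.956. Of 10 Hsp70 partners 8 were over 1, and Hspa4, an exchange factor related to Hsph1, passed at 1.59 (1.53 to 1.66), from 217.8 CPM in Ncr1-cre polyIC and 136.8 CPM in Ncr1-cre saline. The shift was exceeded most by 2 lists. All 12 chaperones of the endoplasmic reticulum were over 1 (median 0.36), with Pdia4 at 1.59 and Hspa5 at 1.55. All 13 immediate early genes were over 1 and 8 passed (median 0.66), with Fos at 2.21 and Zfp36 at 2.20.

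For Gzmb-cko polyIC over Ncr1-cre polyIC, which bears on the genotype under poly(I:C), 1 of the 7 tested members passed 1.5-fold in microglia. Hsph1 had 20.4 CPM (95% interval 18.9 to 21.9) in Gzmb-cko polyIC and 34.96 CPM (32.7 to 37.4) in Ncr1-cre polyIC, a ratio of 0.582 (0.526 to 0.644). Of 5968 genes 1.54% were lower and 0.268% higher by that fold, and 0.871% had a lower ratio than Hsph1. Over 14 other settings its ratio lay between 0.419 and 0.626.

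The Hsph1 difference recurred in 3 other classes of the same libraries. Its ratio was 0.401 (0.342 to 0.471) in border macrophages, 0.553 (0.365 to 0.824) in monocytes and 0.562 (0.435 to 0.722) in choroid plexus cells, where 2.60, 2.91 and 17.3% of genes were lower by 1.5-fold. In neurons it was 1.09 (0.767 to 1.53). The border macrophage value of Ncr1-cre polyIC also enters the Hsph1 ratio over Ncr1-cre saline above, which was smaller without cells carrying ciliated-cell UMIs. Of choroid plexus cells 465 of 1014 in Gzmb-cko polyIC and 383 of 822 in Ncr1-cre polyIC carried such UMIs. The ratios here include these cells. Classes of 1 library are not replicates, and free RNA of the same droplets reaches all of them.

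Hspa8 was lower in Gzmb-cko polyIC than in Ncr1-cre polyIC in all 5 classes without passing 1.5-fold. The ratio was 0.741 (0.731 to 0.752) in microglia, 0.760 in border macrophages, 0.848 in monocytes, 0.696 in choroid plexus cells and 0.782 in neurons. In the 4 classes other than microglia 43.0, 43.5, 56.7 and 35.6% of all genes had a ratio over 1. In single microglia the median was 1061, 1472 and 1083 CPM, so the difference did not lie in a few cells.

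Of the remaining members, Hspd1 had 0.887 in microglia, Dnajb1 0.931, Hsp90aa1 0.960, Hsp90ab1 1.05 and Hspe1 1.10 (1.07 to 1.12). Genes with transcripts under 1000 bases, such as Hspe1, had a median log2 ratio of 0.19, and those of 2000 bases and over -0.07. The median over the 7 members was -0.10 on the log2 scale and -0.03 over all genes. Of all genes 44.6% had a ratio over 1. With TMM factors that median was 0.06, 62.2% of genes were over 1, and Hsp90aa1 stood at 1.02, so its direction changed. Hspd1 passed 1.5-fold in choroid plexus cells, at 0.618 (0.540 to 0.706), where 17.3% of 5210 genes were lower by that fold. Hspe1, encoded beside it, had 1.39 (1.31 to 1.47) there.

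None of the 11 Hsp90 cochaperones had a ratio over 1 and none passed 1.5-fold, with a median log2 ratio of -0.10 beside -0.03 for all genes. These list counts are on the CPM scale, and the TMM factors above raise the median of all genes to 0.06. Of the cochaperones, Stip1 stood at 0.779 (0.728 to 0.832) and Ppid at 0.815. Hspa4 had 0.730 (0.703 to 0.759) and Dnaja1 0.798, while over all 11 Hsp70 partners tested 6 were above 1 and the median was 0.03. Of 12 chaperones of the endoplasmic reticulum 10 were below 1, and Hspa5 passed 1.5-fold at 0.590 (0.579 to 0.602). Fos had 0.689 and Zfp36 0.796 among the immediate early genes, of which 10 of 13 were below 1.

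Gzmb-cko polyIC over Ncr1-cre saline differs in genotype and treatment at once and shares a library with each comparison above. In microglia no member passed 1.5-fold, where 1.14% of 5812 genes were higher and 1.70% lower, and 75.0% of genes had a ratio over 1. Hsph1 had 20.4 CPM in Gzmb-cko polyIC and 27.7 CPM in Ncr1-cre saline, a ratio of 0.735 (0.663 to 0.814). Hspa8 had 1165 CPM in Gzmb-cko polyIC and 1160 CPM in Ncr1-cre saline, a ratio of 1.005 (0.991 to 1.02). The other 5 tested members lay between 0.918 for Hsp90aa1 and 1.06 for Hspd1. In monocytes Hspa1a was lower at 0.363 (0.238 to 0.540), where 2.12% of genes were lower by 1.5-fold.

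**Figure D3:**
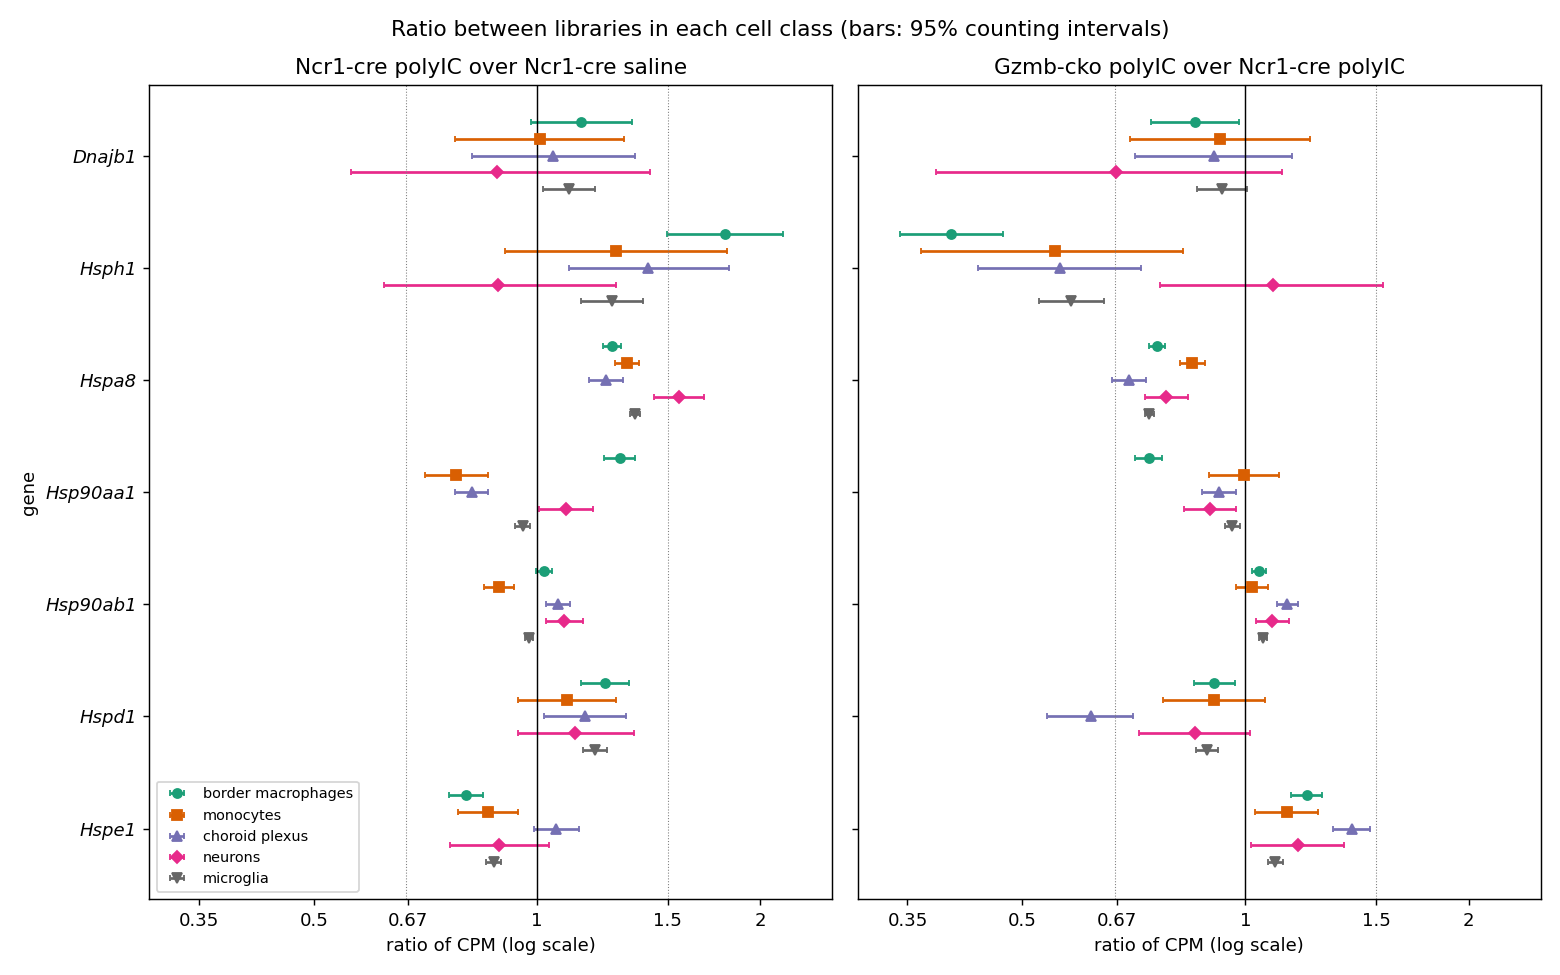
Ratio of CPM between libraries (x axis, log scale; bars 95% counting intervals) for 7 genes in 5 cell classes, with Ncr1-cre polyIC over Ncr1-cre saline on the left and Gzmb-cko polyIC over Ncr1-cre polyIC on the right; dotted lines mark 1.5-fold either way. Hspa8 lies right of 1 on the left and left of 1 on the right in all classes, and Hsph1 lies past the line on the right in 4 of 5.

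Within microglia, the chaperones were set against the cell cycle. Cycling microglia (1439, 997 and 1771 cells) had more Hsp90aa1 than non-cycling ones (3682, 3275 and 3293 cells) in every library. The level was 609.4, 690.3 and 639.6 CPM in cycling and 380.0, 389.7 and 403.8 CPM in non-cycling microglia, a log2 fold of 0.67 (SE 0.04, adjusted p 1.04e-07 in edgeR). Hspd1 had 234.5, 273.0 and 230.3 CPM in cycling and 191.7, 215.9 and 169.2 CPM in non-cycling microglia, a log2 fold of 0.30 (SE 0.04, adjusted p 5.35e-05 in edgeR). The groups of 3 libraries did not overlap for either gene, but how many of all genes separate so was not counted. By edgeR 21.6% of 12825 genes were higher and 19.6% lower.

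Hsph1 was higher by 0.24 (SE 0.07, adjusted p 0.0189) and Hspe1 lower by edgeR at -0.10 (SE 0.03, adjusted p 0.0330). The Hsph1 call was lost in 4 and the Hspe1 call in 6 of 12 alternatives, with adjusted p up to 0.260 and 0.119. In all 3 members were higher and 1 lower, where 21.6% and 19.6% of 12825 genes were called. Stip1 was higher at 0.63 (SE 0.04), Ptges3, the Hsp90 cochaperone p23, at 0.67 (SE 0.04) and Hspa9, the mitochondrial Hsp70, at 0.34 (SE 0.04), as were 7 of 12 Hsp90 cochaperones (1 lower) and 5 of 7 TRiC genes. Cycling microglia were deeper, with median UMIs of 7178, 6593 and 5692 against 5371, 4824 and 4328.

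Immediate early genes and chaperones are both known to respond to dissociation, so microglia with UMIs of both Fos and Jun were compared with those lacking both. In the main setting none of the 9 genes was called higher with Fos and Jun, and 1 was called lower. Hspe1 was lower at -0.50 on the log2 scale (SE 0.15, adjusted p 0.0152 in edgeR), where 14.6% of 12687 genes were higher and 15.6% lower. It had 491.0, 443.2 and 519.6 CPM in positive and 608.1, 609.2 and 447.0 CPM in negative microglia, so Ncr1-cre saline went the other way. The call was lost without Gzmb-cko polyIC or without Ncr1-cre polyIC (adjusted p up to 0.324). Dnajb1 had a log2 fold of 0.20 (SE 0.16, adjusted p 0.351 in edgeR) and Hspa1a 0.57 (adjusted p 0.390). Over the alternatives the Hspa1a fold ran from 0.11 to 9.15, with a lowest adjusted p of 2.26e-05 in edgeR or DESeq2. That of Hspa1b ran from -0.46 to 3.03 (lowest 0.0386), so the main result for both genes depends on the processing. Positive cells had median UMIs of 6069, 5616 and 4798.5, against 3523.5, 1917.5 and 4690 in negative cells, so depth differed most in the poly(I:C) libraries.

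Hspa1a and Hspa1b were carried by a small minority of cells. In microglia 52, 61 and 52 cells had a UMI of either gene, or 1.02% (0.759 to 1.33), 1.43% (1.09 to 1.83) and 1.03% (0.768 to 1.34) by exact binomial intervals. Most had a single UMI (37, 36 and 42 cells). The 6, 3 and 3 cells with 10 or more UMIs held 82.7, 32.7 and 60.0% of the 399, 156 and 170 UMIs, and the highest cell had 146, 21 and 61.

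Of the positive microglia 11, 8 and 8 carried UMIs of both genes. Among monocytes 3.50, 3.72 and 4.79% were positive, among border macrophages 2.02, 3.47 and 1.99%, and among choroid plexus cells 1.18, 1.95 and 1.12%. No class here is known to lack these genes, so the share that free RNA gives was not measured. Neurons, with the fewest UMIs, had 2, 3 and 0 positive cells, and 0 of 113 cells has an exact upper limit of 3.21%. After each cell was thinned to 3000 UMIs, Hspa1a was found in 0.424, 0.764 and 0.513% of microglia and in 1.48, 1.52 and 2.71% of monocytes, and at such shares single UMIs in expressing cells and free RNA cannot be told apart.

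The ratios of Hspa1a and Hspa1b between libraries rest on those few cells. In microglia Gzmb-cko polyIC over Ncr1-cre polyIC gave 1.71 (1.37 to 2.14) for Hspa1a and 2.31 (1.601 to 3.40) for Hspa1b. They were 0.578 and 0.495 when cells needed at least 1000 genes and at most 5% mitochondrial UMIs. Neither gene had the level that the call requires, and counting intervals understate the error when 1 cell holds 146 UMIs.

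Microglia with a UMI of either gene were then compared with the rest for the other 7 members, a comparison added after the data were seen. Hsph1 had 65.6, 129.3 and 93.6 CPM in positive and 19.8, 32.9 and 26.8 CPM in negative microglia, a log2 fold of 1.75 (SE 0.19, adjusted p 0.000271 in edgeR over 12863 genes). Hsp90aa1 had 1076, 1551 and 1027 CPM in positive and 452.4, 455.2 and 494.0 CPM in negative microglia, a log2 fold of 1.27 (SE 0.13, adjusted p 0.000216 in edgeR). Every positive value of both genes lay above every negative one, but how many of all genes separate so was not counted. RNA of neurons and ciliated cells was also higher in positive cells, with values given below, and both genes are higher in neurons and choroid plexus cells than in microglia. Without microglia carrying ciliated-cell UMIs the log2 folds were 1.42 for Hsph1 and 0.92 for Hsp90aa1, still called. The part of neuronal RNA was not tested. Hspa8 had 2277, 2106 and 1838 CPM in positive and 1152, 1560 and 1151 CPM in negative microglia, a log2 fold of 0.61 (SE 0.12, adjusted p 0.0403 in edgeR).

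That is 3 of 7 members higher and none lower, where 0.295% of all genes were higher and 0.140% lower. The Hsph1 and Hsp90aa1 calls held under all 12 alternatives, and that of Hspa8 was lost in 3 (adjusted p up to 0.117): without Gzmb-cko polyIC, without likely doublets and under the stricter cell filter. Hspd1 missed the threshold at 0.70 (adjusted p 0.0539), Dnajb1 at 0.61 (0.280), Hspe1 at 0.38 (0.205) and Hsp90ab1 at 0.33 (0.168). Positive cells had median UMIs of 6784, 6757 and 5553.5, against 5768, 5085 and 4729 in negative cells.

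**Figure D4:**
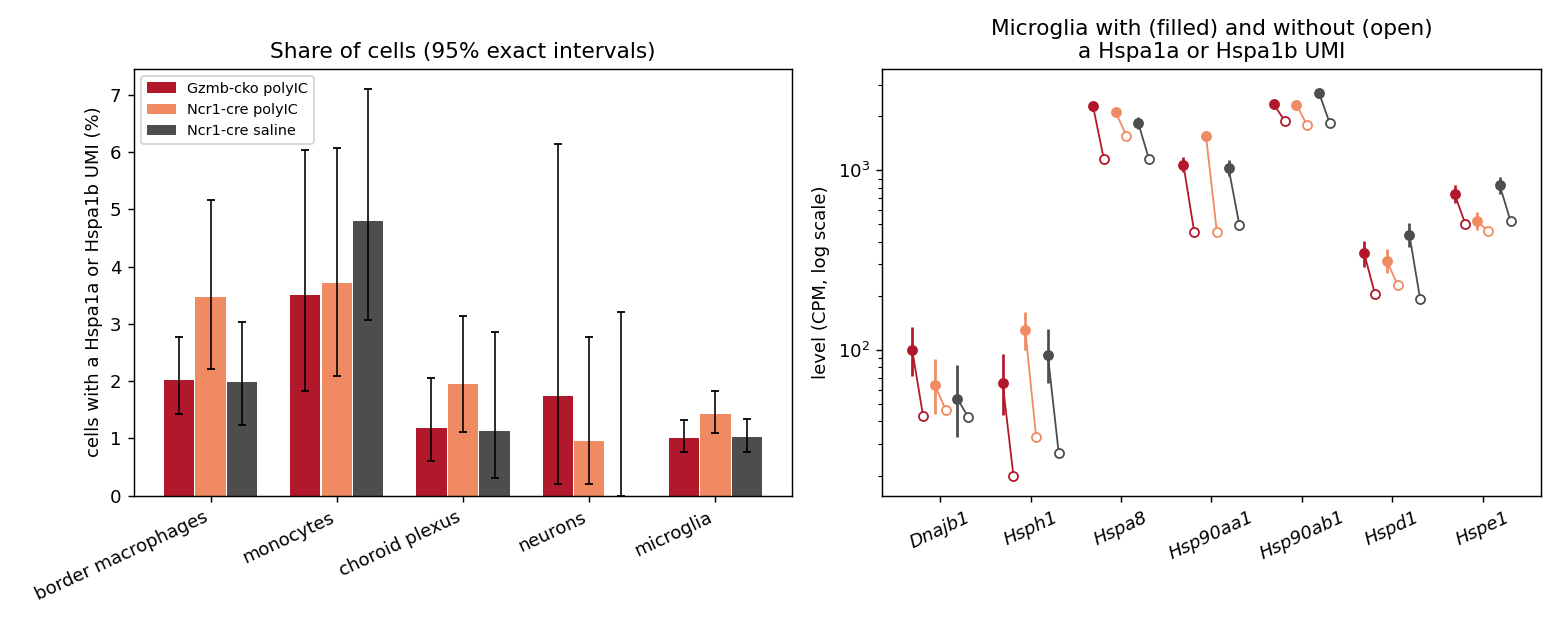
Left, share of cells with a UMI of Hspa1a or Hspa1b (y axis, %; bars 95% exact intervals) in 5 cell classes by library. Right, level (y axis, CPM, log scale; bars 95% counting intervals) of the other 7 genes in microglia with (filled) and without (open) such a UMI in each library; Hsph1 and Hsp90aa1 are higher with it in all 3.

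Pooled over the libraries, the 3 members called in that comparison were highest in the cells with the most Hspa1a and Hspa1b UMIs, and the steps below that were uneven. Over all libraries 14292 microglia had 0, 115 had 1, 38 had 2 to 9 and 12 had 10 or more. In that order Hsph1 had 25.8, 82.8, 78.2 and 305 CPM, Hsp90aa1 467, 1053, 1083 and 3490 CPM and Hspa8 1265, 1698, 2132 and 5120 CPM. Dnajb1, at 43.7, 47.2, 78.2 and 257 CPM, and Hspe1, at 496, 582, 649 and 1554 CPM, were highest in the 12 cells with 10 or more. These pooled values weigh the libraries by their cells and have no test.

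Single libraries differed in which cells carried the difference. In cells with 1 UMI, Hsph1 had 18.48, 148.7 and 75.9 CPM and Hsp90aa1 476.8, 1710 and 924.5 CPM, so in Gzmb-cko polyIC these 37 cells were at the level of negative microglia. Hsph1 rested there on 5 UMIs. In cells with 10 or more UMIs (6, 3 and 3 cells), Hsph1 had 388.7, 223.3 and 298.9 CPM and Hsp90aa1 5394, 1637 and 3331 CPM. In cells with 2 to 9 UMIs, Hsp90aa1 had 918.7, 1296 and 547.2 CPM, in both Ncr1-cre libraries less than in cells with 1. Hspa8 had 2057, 2384 and 1242 CPM in cells with 2 to 9 UMIs and 8941, 2382 and 3117 CPM in cells with 10 or more. In Ncr1-cre polyIC, Hspa8 and Hsp90aa1 were thus not highest in the cells with 10 or more UMIs.

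The cells with most inducible Hsp70 also carried RNA of oxidative stress genes, chosen after their values were seen. Hmox1, the heme-degrading enzyme heme oxygenase 1, had 3062, 1328 and 896.2 CPM in positive and 147.7, 127.5 and 131.5 CPM in negative microglia, a log2 fold of 3.43 (SE 0.23, adjusted p 1.59e-06 in edgeR). Srxn1, which restores oxidised peroxiredoxins, was higher at 3.84 (SE 0.35) and Gclm, of glutathione synthesis, at 2.17 (SE 0.22). Cx3cr1, the fractalkine receptor of resting microglia, was lower at -0.64 (SE 0.10, adjusted p 0.00883). Over 0, 1, 2 to 9 and 10 or more UMIs Hmox1 had 137, 319, 3163 and 8924 CPM. RNA of other cell types was also higher in positive cells. Meg3, a neuronal noncoding RNA, had 301.1, 449.7 and 80.3 CPM in positive and 33.9, 46.9 and 34.6 CPM in negative microglia. Dynlrb2, a dynein chain of ciliated cells, had 7.28, 170.5 and 10.7 CPM in positive and 1.25, 3.22 and 3.21 CPM in negative microglia. Col1a1, a collagen of fibroblasts, had 0, 425.3 and 2.68 CPM in positive and 0.178, 1.16 and 0.690 CPM in negative microglia.

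Genes with the most similar levels over the 15 sums were listed for each member among 6073 genes with a mean of at least 20 CPM, by Pearson r of log2(CPM + 1). These r are descriptions over sums that share libraries and cell classes. Hspa8 was closest to Ppp1r12a (0.97), Gpcpd1 (0.96) and Whsc1l1 (0.95), and Hsph1 to Ube2h (0.93), Zfp24 (0.91) and Cdh2 (0.90). Hsp90aa1 was closest to Kif3a, Kifap3 and Ryk (0.97 each) and Hsp90ab1 to Rab12, Ttc4 and Ddah2 (0.97 each). Hspd1 was closest to Nf1 and Caml (0.97 each) and Setd5 (0.96), and Hspe1 to Phgdh (0.93), Pdlim4 (0.92) and Fam195a (0.91). Dnajb1 was closest to Hdlbp (0.88), Rexo4 (0.87) and Tbk1 (0.83). Hspa1a was closest to Sharpin and Ifit1 (0.86 each), and Hspa1b to Rsad2 (0.81), Ccr2 (0.79), the gene that gated monocytes, and C1galt1c1 (0.76). Among the members themselves, r was 0.83 between Hsp90aa1 and Hsph1, 0.81 between Hsp90aa1 and Hsp90ab1, 0.76 between Hspa1a and Hspa1b, and -0.86 between Hspe1 and Hspa8.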

How the data were processed

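Each library is 1 deposited matrix of UMI counts that the authors did not normalise. The file headers give Cell Ranger 5.0.0 as the writer, whereas Cell Ranger 3.0.1, STAR and mm10 stand in the submitters' processing notes. How barcodes were called as cells is not stated. Reads that fit more than 1 gene are dropped by that counter. Of the gene IDs, 99.0% matched GENCODE M21.

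Cells with at least 500 genes and at most 10% mitochondrial UMIs that met exactly 1 gate were summed per class and library in Python 3.11.15 (scipy 1.17.1) and scaled to CPM. Cells in several gates (347, 277 and 470 in Gzmb-cko polyIC, Ncr1-cre polyIC and Ncr1-cre saline) were left out. Doublets were kept in the main results. Scrublet's automatic threshold (scanpy 1.11.5) marked 0, 336 and 0 barcodes and so had not worked, and as an alternative the highest-scoring 0.8% per 1000 barcodes were removed. Intervals and limits (3 counts for a count of 0) cover counting error only. Sums were tested with edgeR 4.0.16 (TMM, filterByExpr, quasi-likelihood test) in R 4.3.3, with DESeq2 1.42.0 as an alternative, and the steps were tested on simulated data.

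The members, the lists, the comparison of Hspa1a or Hspa1b positive cells and the alternatives on cells with other-class or ciliated-cell UMIs were chosen with earlier results of these data known. Of each partner list at most 4 genes with the largest ratios in microglia were named, and the 3 most similar genes per member, of which 1 is not reported here. Ptges3, Cx3cr1, Meg3, Dynlrb2, Col1a1 and the oxidative stress genes fall outside that rule and were chosen after their values were seen.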

Additional observations from a re-analysis of the deposited data

Results flagged for a closer look

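Hspa1a and Hspa1b went in opposite directions in different cell classes of the same libraries. None of these differences between classes was tested, and most rest on few cells. For Ncr1-cre polyIC over Ncr1-cre saline, the Hspa1a ratio was 2.98 in border macrophages, 0.421 in monocytes and 0.430 in choroid plexus cells. For Gzmb-cko polyIC over Ncr1-cre polyIC, Hspa1a had 1.71 in microglia and 0.425 in border macrophages, and Hspa1b had 2.31 in microglia and 0.291 in border macrophages. For Gzmb-cko polyIC over Ncr1-cre saline, Hspa1a had 2.18 in microglia, 0.363 in monocytes and 0.419 in choroid plexus cells, and Hspa1b had 1.75 in microglia and 0.405 in monocytes. The microglial values of that pair fell below 1, to 0.867 and 0.590, with cells of at least 1000 genes and at most 5% mitochondrial UMIs.

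Barcodes outside the cell filter, which no comparison uses, also held RNA of the 9 genes. Together the genes had 1692 CPM in 1859 such barcodes of Gzmb-cko polyIC and 1011 CPM in 4128 of Ncr1-cre polyIC, above the 235.5 CPM in 1672 of Ncr1-cre saline. Those barcodes had median UMIs of 1872, 2265 and 5971.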

How the results depend on the processing

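With 1 library a group, no treatment or genotype difference has a replicate check, and results read from Hspa1a and Hspa1b rest on few cells. No direction of a called result reversed under the alternatives run, while Hsp90ab1 in choroid plexus cells is higher in edgeR and lower on the CPM scale. Of summary values 206 kept their call or size, 15 became larger, 13 smaller or lost and 7 moved. Of values of single genes 873 kept theirs, 42 gained and 33 lost a call and 135 moved. The cause was not tested. Microglial members with a ratio over 1, of 9, numbered 5 for Ncr1-cre polyIC over Ncr1-cre saline, and 8 in cells without Fos and Jun UMIs. For Gzmb-cko polyIC over Ncr1-cre polyIC they numbered 4, and 2 under the stricter cell filter or in cells with at most 0.1% of other-class UMIs, a setting not run against Ncr1-cre saline, where no cell qualified. For Gzmb-cko polyIC over Ncr1-cre saline they numbered 6, but 3 with TMM factors and 2 with totals without mitochondrial, ribosomal protein and hemoglobin genes, with at most 2% other-class UMIs, or in cells with Y gene and no Xist UMIs.

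Members called in cycling microglia numbered 4, and 2 under the stricter filter. For Fos and Jun they numbered 1, but 2 with DESeq2 size factors, under the stricter filter, with at most 2% other-class UMIs or without ciliated-cell UMIs, and 4 with the UMI floor of the saline library. For Hspa1a or Hspa1b positive cells they numbered 3, and 5 with DESeq2. Genes called in cycling microglia numbered 5280, and 2807 with DESeq2. For Fos and Jun they numbered 3828, and 2421 with DESeq2, 2498 under the stricter filter and 5772 with each gate on its own. For Hspa1a or Hspa1b positive cells 56 genes became 239 with DESeq2, 469 without a filter on low counts, 139 with each gate on its own, 142 with at most 2% other-class UMIs and 135 without ciliated-cell UMIs. In border macrophages 733 genes became 1243 without ciliated-cell UMIs.

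With each library left out in turn, members called ranged from 11 to 12 over all classes (main 15), 4 to 5 in monocytes, 2 to 5 in cycling microglia, 0 to 3 for Fos and Jun and 2 to 4 for Hspa1a or Hspa1b positive cells. Genes called ranged from 239 to 489 in border macrophages, 971 to 5112 for Fos and Jun and 31 to 356 for Hspa1a or Hspa1b positive cells. No paired analysis was possible because each group has 1 library in the comparisons between libraries. The class and state fits have the library as a covariate.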
